A study of Mus musculus with 42 samples.

Results

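The baseline transcriptome of unirradiated lungs was described from the 13 arrays whose source label names an unirradiated control, of 42 arrays in the series. The lungs came from 6 female and 7 male mice of the strain 129S2 K-rasLA1, each with 1 array, and none of these mice received radiation. The labels describe all animals as carrying G12D mutant K-ras, so every lung described here carries the allele and none is wild type. The K-rasLA1 allele is a latent oncogene that becomes active by sporadic recombination in single cells, and mice that carry it develop lung tumours. The controls travelled to the irradiation site with the other mice, and the whole left lung was frozen 70 days after the exposure of the irradiated animals. The labels state no age, litter or tumour count for the mice.

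The lung is built from thin alveolar type 1 cells that exchange gas, alveolar type 2 cells that make surfactant, airways lined by club and ciliated cells, a dense capillary network, smooth muscle, fibroblasts and resident macrophages. Blood stays in the vessels when the organ is removed, cardiac muscle sleeves surround the pulmonary veins of the mouse, and fat, lymph node or other tissue can adhere to the root of the lung. An array of a whole lobe sums over all of these. In such bulk samples fewer cells of a type and less RNA per cell cannot be told apart.

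The arrays were BeadChips, glass slides that hold several arrays each, and the 13 controls lay on 7 slides. On slides 1, 2, 3, 4, 6 and 7 there was 1 female and 1 male control, and slide 5 held 1 male control, so each mouse is named below by its slide and sex. Values are background-corrected, quantile-normalised log2 signals. Spread between mice was measured as the standard deviation (SD) after the mean of each slide was removed. It rests on 6 differences between a female and a male, and any difference between the sexes is part of it. The slide 5 male adds nothing to this spread.

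The 13 arrays differed in brightness before normalisation. The 95th percentile of the raw signal ran from 1088 in the slide 1 male to 3151 in the slide 5 male. The median raw signal was between 95.1 and 144, between 16314 and 17683 of 45281 probes were detected, and the correlation of an array with the median profile of the other 12 was between 0.972 and 0.989. The slide 1 male was lowest in the number of detected probes and in this correlation, and the part of this in the low values it has below was not tested. Of 31 defining markers of lung cell types, 30 had a probe and 28 were detected in all 13 mice, the others being Foxj1 of ciliated cells (11 mice) and Col1a2 of fibroblasts (6 mice). Probes for the thymus markers Rag1 and Dntt and the oesophagus markers Krt4 and Krt13 were not detected in any mouse. The thymus marker Ptcra was detected in 2 mice, with its highest value in the slide 1 male.

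The slide 4 male stood apart. It held 128 probes that were detected in no other control and had a log2 signal over 7, against 0 to 4 such probes in each of the other 12 mice. Its 92 named genes were mostly genes that the liver is known to express, such as the apolipoproteins Apoa1 and Apoa2, the thyroid hormone carrier Ttr, the haem carrier Hpx, the fibrinogen chain Fga, the urea cycle enzyme Cps1 and the bile acid enzyme Cyp7a1. Apoa1 reached 13.27 there and at most 5.56 in the other mice, and Ttr reached 12.81 and at most 4.62. The probe of Alb, the albumin gene that defines liver, was not detected in that mouse (4.54, detection p 0.636) or in any other. Among lung markers in the slide 4 male, Sftpc of alveolar type 2 cells was at 14.65 (median of the 13 mice 14.67) and Ager of type 1 cells at 14.42, the highest of the 13. For genes and clusters with their highest value in this mouse, the value without slide 4 is given where it was computed.

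**Figure D1:**
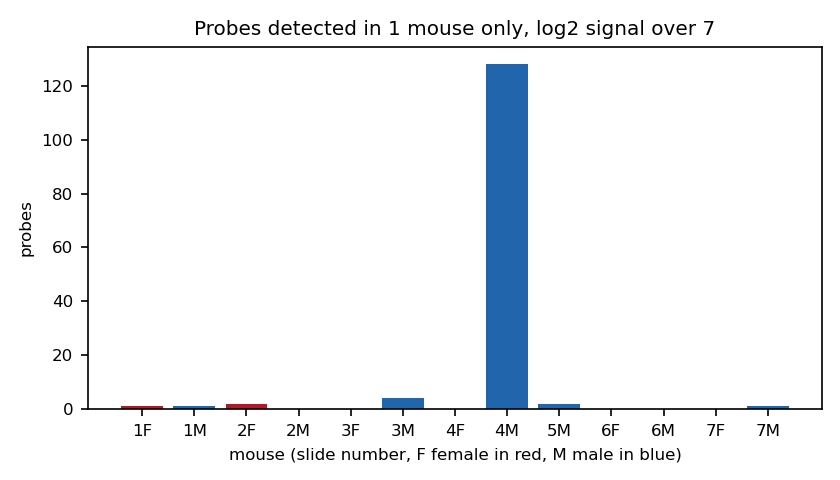
Number of probes (vertical axis) detected in 1 control mouse only and with a log2 signal over 7 there, by mouse (horizontal axis, slide number with F for female in red and M for male in blue). The slide 4 male holds 128 such probes and each other mouse at most 4.

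The brightest probes were those of genes for blood, surfactant, airway secretion and protein synthesis. A probe's brightness also depends on how well it binds, so the order below is no order of transcript abundance. Among the 100 brightest probes 65 carried a gene name, for 50 genes. Of these, 18 probes were of ribosomal proteins, 9 of haemoglobin chains, 4 of surfactant proteins, and 2 of genes on the mitochondrial chromosome. Alveolar type 2 cells were represented by 5 genes and club or secretory cells by 4, while no gene from the lists for alveolar type 1 cells, endothelium, smooth muscle or ciliated cells was among them.

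Hbb-bs, a beta chain of haemoglobin, had the brightest named probe, with a lowest log2 signal of 15.09, a median of 15.24 and a highest of 15.31 over the 13 mice. The alpha chain Hba-a1 had 14.83, 14.94 and 15.14, and the other beta chain Hbb-bt 14.67, 15.07 and 15.20. Globin copies share most of their sequence, so the probe of 1 copy may also bind another. Fth1, the iron storage protein ferritin, followed Hbb-bs with a median of 15.22.

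Surfactant protein genes differed in range. Sftpd, a collectin of the air space, ran from 14.69 to 15.31 with a median of 15.15. Sftpc, the hydrophobic surfactant peptide that only alveolar type 2 cells make, ran from 14.47 in the slide 7 male to 14.98 in the slide 2 male, with a median of 14.67. The ranges were wider for Sftpb (13.71 to 15.24), another hydrophobic surfactant peptide, and for Sftpa1 (13.09 to 14.54), a collectin like Sftpd. The lysozyme genes Lyz1 and Lyz2, the latter known from macrophages, had medians of 14.99 and 14.82. Cxcl15, a chemokine of the lung epithelium, varied most among the 25 brightest named genes, from 14.17 to 15.24 with an SD within slides of 0.334.

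Airway genes were also among the brightest. Scgb1a1, the club cell secretory protein, had a lowest value of 14.44, a median of 14.74 and a highest value of 15.04. Cyp2f2, a cytochrome P450 of club cells, ran from 14.21 to 15.22, and Cbr2, a carbonyl reductase of the airway epithelium, from 14.92 to 15.26. The bright set also held Wfdc2, a secreted antiprotease, Inmt, a methyltransferase of lung stroma, and Mgp, an inhibitor of calcification, whose medians were 14.92, 14.79 and 14.77. Rplp1, Rps29 and Rpl41 of the ribosome and the elongation factor Eef1a1 had medians between 15.06 and 15.13.

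The median SD within slides of the 100 brightest probes was 0.104, against 0.219 for all 17174 probes tested. Quantile normalisation gives all arrays the same set of values, and its part in this low spread was not tested. The strongest raw signal on an array ran from 32430 to 49684.

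Over 9973 named genes with a tested probe, the median SD within slides was 0.209, with 0.0925 as the 5th percentile and 0.541 as the 95th. There were 606 genes with an SD over 0.5 and 90 with an SD over 1. A probe was called variable when its variance exceeded the trend for probes of like brightness at an adjusted p under 0.05 (limma, Benjamini-Hochberg over all probes). This called 46 probes (0.268% of those tested), of which 31 were named, for 28 genes (0.281% of genes), and 15 were not named. The count depended on the fit. It was 0 with a prior that is not made robust (944 probes at an unadjusted p under 0.05) and 0 with no slide term (1037 probes), against 1193 at that level in the fit reported. Without slide 4 there were 54 calls, 43 of them shared with the 46, and leaving out each slide in turn gave between 5 (without slide 3) and 98 (without slide 2). In simulated data the test recovered 2 of 100 probes at 4 times the trend SD and 53 of 100 at 8 times. A gene that was not called may therefore still vary more than the trend.

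**Figure D2:**
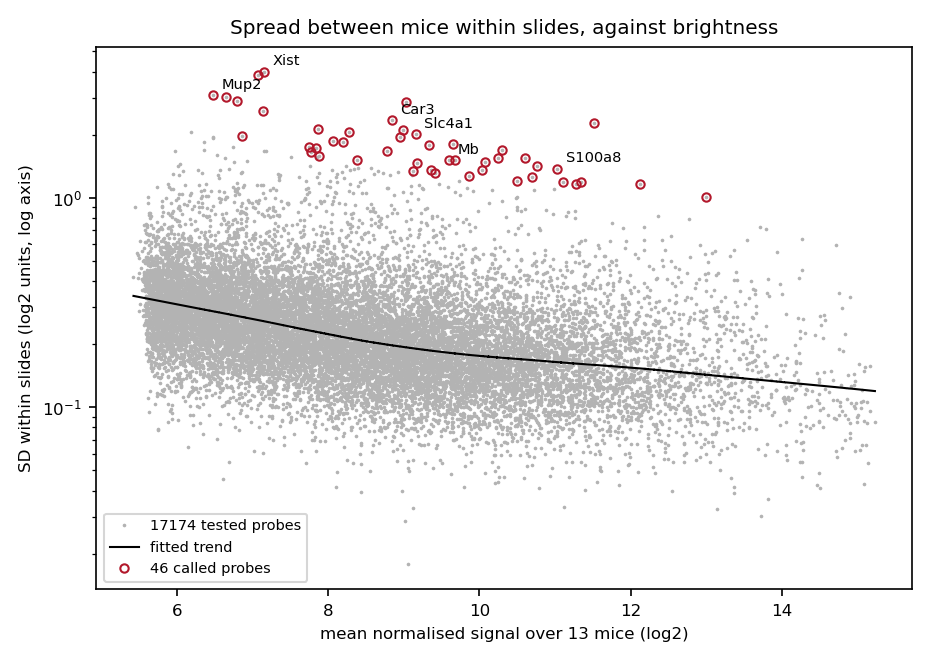
SD between mice within slides (vertical axis, log2 units on a log axis) against mean normalised log2 signal over the 13 mice (horizontal axis) for 17174 tested probes (grey), with the fitted trend (line) and the 46 called probes (red circles). The trend falls with brightness, and the called probes lie well above it, led by Xist with an SD of 4.01.

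The 25 called genes of largest SD within slides are described here by what they are known to do. Their choice rests on the same values, so their spread is a description. In 13 of the 25 more than 50% of the spread came from 1 slide, and 16 kept an SD over 1 without the slide that contributed most. Without slide 3, Xist and Car3 were the genes of the 25 that were still called. Xist on the X chromosome (SD 4.01) and Eif2s3y on the Y chromosome (SD 2.92) were sex-linked. With slide and sex removed their SDs were 0.203 and 0.249.

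Mup2, a major urinary protein that male mouse liver secretes, had 14.87 in the slide 4 male. In the other 12 mice it was at most 7.73, and its probe was detected in 6 of the 13 mice. The SD was 3.09 with slide 4 and 1.21 without it, where the gene was not called. Major urinary protein genes are near-identical copies, so the probe may bind several of them.

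Striated muscle genes formed a group of 6, with Mb, Ckmt2, Mybphl, Csrp3, Sln and Tnnc1 among the 25. Mb encodes myoglobin, the oxygen store of striated muscle, and had 10.20, 8.93, 8.90, 8.33, 6.75 and 10.62 in the females of slides 1, 2, 3, 4, 6 and 7. In the males of slides 1 to 7 it had 11.97, 7.02, 11.63, 8.42, 9.99, 10.20 and 11.77. The slide 1, 3 and 7 males were high and the slide 6 female and slide 2 male low, and the sexes overlapped. Sln, the sarcolipin of atrial muscle, had a lowest value of 8.22 in the slide 6 female, a median of 10.90 and a highest value of 12.65 in the slide 1 male. Csrp3, a protein of the muscle Z-disc, ran from 7.36 in the slide 2 male to 12.33 in the slide 7 male. Tnnc1, the calcium sensor of cardiac troponin, ran from 8.13 to 12.64, Mybphl, a myosin binding protein of atria, from 6.55 to 11.60, and the mitochondrial creatine kinase Ckmt2 from 5.57 to 10.68. The SDs within slides of the 6 genes lay between 1.20 and 1.51, and were between 0.959 and 1.25 without slide 6, which contributed most to 6 of 6. None of the 6 was called without slide 6, and none without slide 3. Of 3 defining markers of skeletal muscle, Myh4 was detected in no mouse, Tnnt3 in 1 and Acta1 in 2, the last with 9.57 in the slide 7 male.

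Because these genes moved together, their promoters were searched for the CArG box, the motif bound by serum response factor in muscle genes. A promoter here is the RefSeq window from 250 bases before to 50 bases after a gene's start (build GRCm38.p6), and both strands were searched. Of the 38 genes that clustered around myoglobin (below), 32 matched a window. The motif occurred in 4 of these (12.5%), Actc1, Fhl2, Ldb3 and Myl7, and in 1.57% of all 27025 promoters. Clusters led by Mup2, Nppa and Hamp had 1 match each (12.5%, 8.33% and 5.88% of their windows). A match is a run of letters and not a site of binding. The window of Myl7, the atrial myosin light chain, is shown as the match with the largest spread on the heart muscle list. It lies on chr11:5898733-5899032 (minus strand), and its capitals mark the CArG box, which starts 61 bases before the gene start.
Myl7: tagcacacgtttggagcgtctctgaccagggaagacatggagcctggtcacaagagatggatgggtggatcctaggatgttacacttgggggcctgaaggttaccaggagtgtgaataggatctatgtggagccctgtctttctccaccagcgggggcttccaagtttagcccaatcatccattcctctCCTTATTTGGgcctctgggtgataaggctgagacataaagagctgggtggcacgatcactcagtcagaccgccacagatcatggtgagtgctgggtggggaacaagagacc

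Genes of fat tissue varied as widely. Adipoq encodes adiponectin, the hormone of fat cells, and had 9.29, 11.26, 7.04, 6.90, 5.43 and 9.31 in the females of slides 1, 2, 3, 4, 6 and 7. In the males of slides 1 to 7 it had 8.64, 4.51, 9.60, 5.66, 8.92, 5.97 and 9.65. Both the highest and the lowest mouse were on slide 2. Car3, the carbonic anhydrase of fat and muscle, had the same extremes, 12.19 in the slide 2 female and 4.51 in the slide 2 male. Slide 2 held 83.6% of the spread of Adipoq and 88.4% of that of Car3, and without it the SDs fell from 2.13 to 0.944 and from 2.36 to 0.879, and neither was called. Of the other fat markers Plin1 and Retn were not detected in any mouse.

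Several red blood cell genes were high in 2 mice. Slc4a1, the anion exchanger of the red cell membrane, had 11.73 in the slide 1 male and 13.03 in the slide 3 male, and between 6.96 and 9.98 in the other 11. Alas2, the first enzyme of haem synthesis in red cells, was called with 14.33 and 13.66 in the same mice and a range of 10.75 to 12.71 elsewhere. The haemoglobin probe Hbb-b2 had its highest values in the same males (12.65 and 12.63) and ran from 10.14 to 11.37 in the others. The brighter globin probes on the list were mixed. Hba-a1 had 15.10 and 15.14 in the slide 1 and slide 3 males, while Hbb-bt had 15.09 and 14.67, the last its lowest value. Rsad2, an antiviral protein that interferon induces, had 12.06 and 12.13 in those males and 7.42 to 9.99 in the others, and Apol11b had 11.46 and 11.71 against 5.81 to 8.81. The SDs without slide 3, the slide of largest share, were 1.07 for Slc4a1, 1.28 for Rsad2 and 1.25 for Apol11b.

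The motif AGATAA, which the red cell factor GATA1 is known to bind, was searched in the same windows on both strands. Of 17 genes that clustered with Slc4a1, 12 matched a window and 3 of these held it (25%), Alas2, Erich2 and Trim10, against 11.4% of all promoters. The share was the same in the cluster led by Tmem213 (25%) and 33.3% in the platelet cluster led by Nppa. It was also 33.3% in the cluster led by Cpa3 (1 of 3 windows) and was 50% in that led by Rnase2a (2 of 4 windows). The window of Alas2 on chrX:150547167-150547466 (plus strand) is shown as the member of the red cell list that holds it. The capitals mark AGATAA on the minus strand, which reads TTATCT here and starts 86 bases before the gene start.
Alas2: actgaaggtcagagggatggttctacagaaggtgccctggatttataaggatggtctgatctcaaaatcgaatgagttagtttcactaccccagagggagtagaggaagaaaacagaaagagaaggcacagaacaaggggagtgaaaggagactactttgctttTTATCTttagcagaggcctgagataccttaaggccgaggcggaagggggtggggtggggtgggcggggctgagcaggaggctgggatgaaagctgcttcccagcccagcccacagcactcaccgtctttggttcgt

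Ppbp, a chemokine stored in platelets, had 12.01 in the slide 3 male and lay between 6.24 and 9.16 in the other 12 mice. Its SD was 1.73, and 0.873 without slide 3. The neutrophil proteins S100a8 and S100a9 followed another pattern. S100a9 had 10.68, 10.65, 10.30, 8.52, 10.06 and 9.08 in the females of slides 1, 2, 3, 4, 6 and 7, and 10.72, 8.15, 11.32, 11.66, 12.76, 12.66 and 11.25 in the males of slides 1 to 7. S100a8 had its lowest value, 8.50, in the same slide 2 male and its highest, 13.11, in the same slide 5 male. Hamp, the iron hormone hepcidin, ran from 5.68 in the slide 6 female to 10.60 in the slide 4 male and was higher in the male on 5 of 6 slides. Its SD was 1.84, and 1.66 without slide 4, where it was still called. It was not called for sex (adjusted p 0.289, limma).

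Several secreted proteins of the airway had wide ranges. Bpifb1, an antimicrobial protein of large airways, ran from 4.84 in the slide 4 male to 12.23 in the slide 7 male, with a median of 10.22. A second Bpifb1 probe followed the first with a correlation of 0.988. On the list of club and secretory cells, Scgb3a1 ran from 5.02 to 10.49, Ltf, the iron-binding lactoferrin, from 6.17 to 11.27, and Bpifa1 from 4.45 to 10.59. None of these 3 was called, with adjusted p values of 0.0703, 0.0516 and 0.0553.

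Dlk1, Kng1 and Tmem213 were low in an overlapping set of mice. Dlk1, a Notch-like protein of progenitor and endocrine cells, was below detection in the slide 1 male (4.51), had 6.72 and 6.84 in the female and male of slide 3, and lay between 8.52 and 12.85 in the other 10 mice. Its second probe gave the same order of these 3 mice, with a correlation of 0.979 between the probes. Kng1, the precursor of bradykinin, was at most 7.21 in the same 3 mice and 9.61 to 12.07 in the others. A second, dimmer Kng1 probe was detected in 10 mice and had a correlation of 0.791 with the first. It was at most 5.12 in the same 3 mice, but it had 9.96 in the slide 4 male and at most 7.85 elsewhere. Tmem213, a small membrane protein, was lowest in the slide 1 male (4.96) and also low in the slide 4 male (5.56) and the slide 3 mice (6.01 and 5.79). Without slide 1 the SDs of Dlk1, Kng1 and Tmem213 were 0.863, 0.818 and 0.995, and none of the 3 was called.

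Cyp2e1, a cytochrome P450 of liver and fat, ran from 7.75 in the slide 2 male to 12.83 in the slide 4 male. Its SD of 1.49 was 1.22 without slide 2. Without slide 4 it was 1.24 and the gene was no longer called.

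In a pair of called genes the spread came from low values in few mice. Epm2aip1, whose protein binds the glycogen phosphatase laforin, had 4.61 in the slide 1 male and 4.62 in the slide 7 male, where it was below detection, and 7.16 to 9.24 in the other 11. Its 4 other probes were dim and had correlations from -0.262 to 0.657 with the first. The brightest of them ran from 5.85 to 6.88, with 6.64 and 6.29 in those males, while the dimmest, detected in 2 mice, had its lowest values in them (4.78 and 4.80). Cops8, a subunit of the COP9 signalosome, had 5.20 in the slide 2 female and 9.14 to 10.48 in the other 12 mice. It had no other probe, and its SD fell from 1.32 to 0.497 without slide 2, where it was not called.

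**Figure D3:**
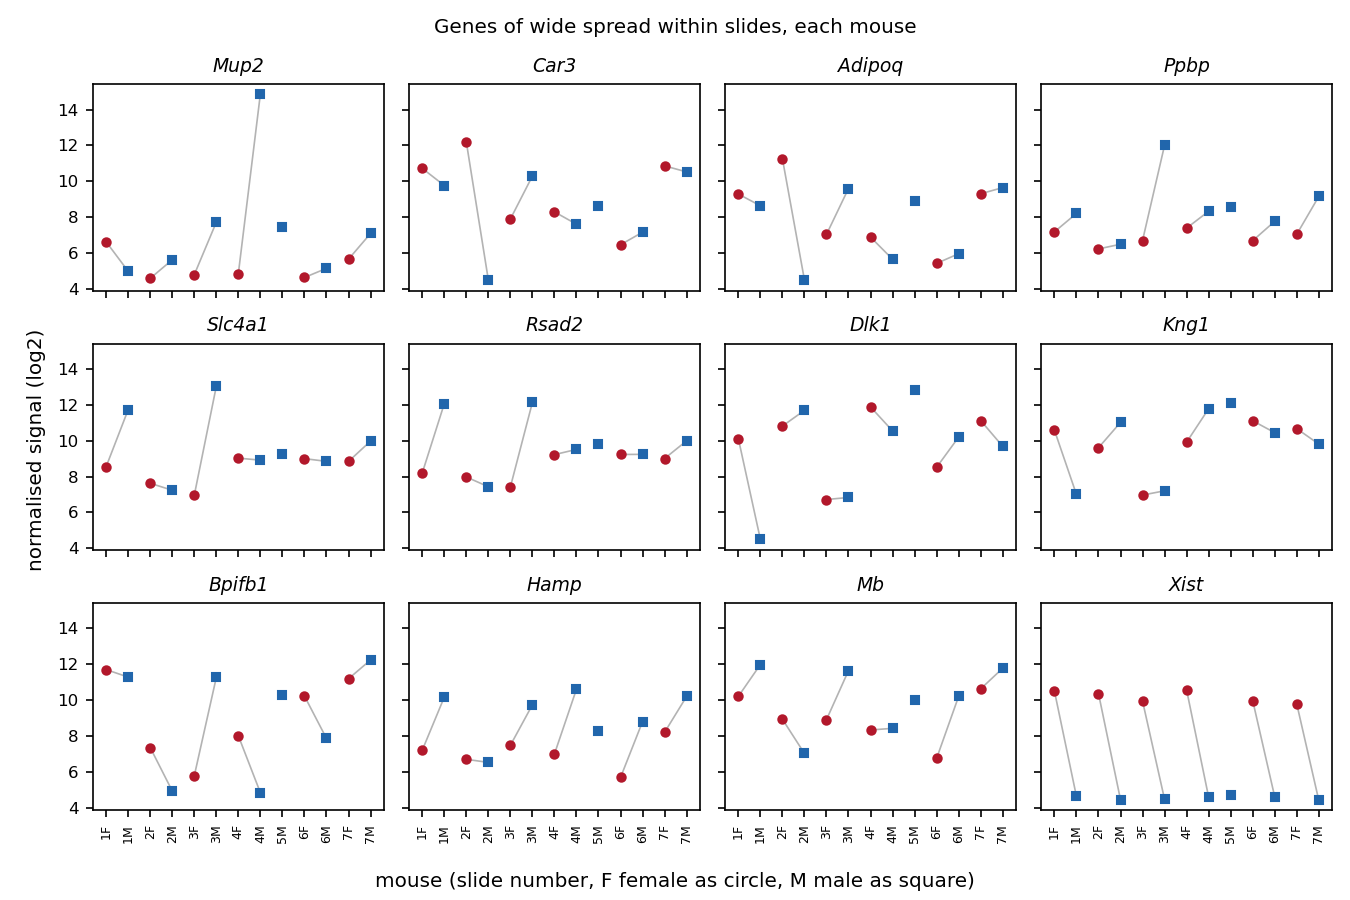
Normalised log2 signal (vertical axis) of 12 genes of wide spread in each of the 13 mice (horizontal axis, slide number with F for female as red circles and M for male as blue squares), with the mice of a slide joined by a line. Mup2 is high in the slide 4 male, Slc4a1 and Rsad2 in the slide 1 and slide 3 males, and Xist in all 6 females.

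Where a gene had several probes, they could be set against each other. Over 3553 genes with at least 2 tested probes, the median correlation between the brightest 2 was 0.521 with slide means removed. For the 89 genes in which both probes had an SD over 0.5 it was 0.962, and for the 19 with both over 1 it was 0.982.

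Genes that varied together were sought among the 200 named genes of largest SD within slides, genes called for sex left out. The last gene taken had an SD of 0.749 and the next 0.747. Average linkage at a correlation of 0.7 placed 176 of them in 12 clusters of at least 5 genes. High correlation within a cluster follows from this choice and is no finding. The correlations rest on 6 differences between mice. What follows gives the members, the mice that set each pattern, and how far the pattern held without them. Correlations with a slide left out use the same genes and the remaining mice that formed the cluster. A high value there follows in part from the choice as well, and a low one shows a pattern that rests on 1 slide.

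The largest cluster held 38 genes, and 15 of them were on the heart muscle list. Its leading genes were Myl1, Mb, Ckmt2, Mybphl, Csrp3, Sln, Tnnc1 and Pgam2, and it also held the sarcomere genes Ttn, Myh6 and Actc1 and the calcium release channel Ryr2. Its mean ran from 6.76 in the slide 6 female to 10.11 in the slide 7 male with a median of 8.55, and it was higher in the male on 5 of 6 slides. The median correlation was 0.910 and was at least 0.893 with each slide left out.

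A cluster of 19 genes held 6 from the neutrophil list, S100a8, S100a9, Csf3r, Mmp9, Retnlg and Il1b. It also held Hamp, Azgp1, Gnmt and Asgr1, which liver is known to express, and all 4 were highest in the slide 4 male. Its mean was highest in the slide 6 male (8.91) and lowest in the slide 2 male (6.61). The correlation stayed at 0.859 or more with each slide left out.

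The Car3 and Adipoq cluster had 17 genes. It contained 5 of the fat list (Car3, Adipoq, Plin4, Cidea and Cidec), the plasma cell genes Pou2af1 and Mzb1, the lymphoid chemokine Cxcl13 and the ciliated cell gene Sntn. Slide 2 held 73.6% of its spread, with 8.80 in the female and 5.64 in the male, and the lowest median correlation with a slide left out was 0.580. A smaller cluster of 5 with Cyp2e1, Amy2a5, Pnpla3, Thrsp and Dgat2, the last an enzyme of triglyceride synthesis, shared its extremes on slide 2 (9.57 and 6.60).

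The Slc4a1 cluster of 17 genes had 5 from the red cell list (Slc4a1, Alas2, Fech, Ube2l6 and Hbb-b2) beside Rsad2, Apol11b and the mitochondrial iron importer Slc25a37. Its mean was 10.37 and 10.11 in the slide 1 and slide 3 males and at most 8.45 in the other mice. A separate cluster of 15 genes held platelet genes, Ppbp, Treml1, Gp9, Tubb1, Gp5, Itga2b, Alox12 and Pf4, with the atrial hormone Nppa and the airway gene Bpifa1. Its mean was 9.59 in the slide 3 male and 7.64 in the slide 1 male, and was higher in the male on 6 of 6 slides. Slide 3 held 69.7% of its spread, and the lowest median correlation with a slide left out was 0.696.

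The cluster led by Tmem213 and Gkn2 had 17 genes, and none of them was on any of the lists. Gkn2 is a secreted protein of stomach epithelium, Cldn2 a tight junction protein, and Sox9 and Etv4 are transcription factors of the embryonic lung tip. The mean of this cluster was 5.34 in the slide 1 male, 6.31 and 6.53 in the slide 3 male and female and 6.57 in the slide 4 male, and 6.87 to 8.52 in the other mice. Gkn2 itself ran from 4.51 in the slide 1 male to 10.90 in the slide 5 male. With each slide left out the median correlation was at least 0.767.

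A cluster of 16 genes held the dividing cell genes Pbk, Cdk1, Cdca8, Kif2c, Prc1, Top2a and Nusap1 together with the receptor kinase Ros1. It was higher in the female on 5 of 6 slides, and its mean ran from 6.45 in the slide 4 male to 8.43 in the slide 2 male. Top2a, the topoisomerase of dividing cells, ran from 5.50 to 7.56 and was detected in 12 mice. Neither Top2a nor Cdk1 was called for variance, with adjusted p values of 0.418 and 0.319.

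The Mup2 cluster of 14 genes (Mup2, Fgl1, Arg1, Itih3, Serpina1d, Serpina1b, C8g and Vtn lead it) had a mean of 11.17 in the slide 4 male and 6.92 to 7.31 in the other 12. Slide 4 held 88.3% of its spread, and without it the median correlation was 0.0554. This was the cluster of 12 that did not keep a correlation over 0.5 with each slide left out.

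The remaining clusters were small. Ivl, Krtap17-1, Epgn and 4 other genes, some of squamous epithelium, ran from 5.33 in the slide 1 male to 8.22 in the slide 7 male. Cpa3 and Cma2, proteases of mast cells, led a cluster of 6 that was higher in the female on 5 of 6 slides. Its other members were Rgs11 and the X-linked Firre, Cfp and C430049B03Rik. Cpa3 was at 8.82 in the slide 4 female and was detected in 6 mice. Rnase2a, Ltf, Tff2, Retnla and Saa3, secreted proteins of inflamed airways, were highest on average in the slide 6 female (10.70), where Rnase2a had 9.84 and Retnla 14.89.

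**Figure D4:**
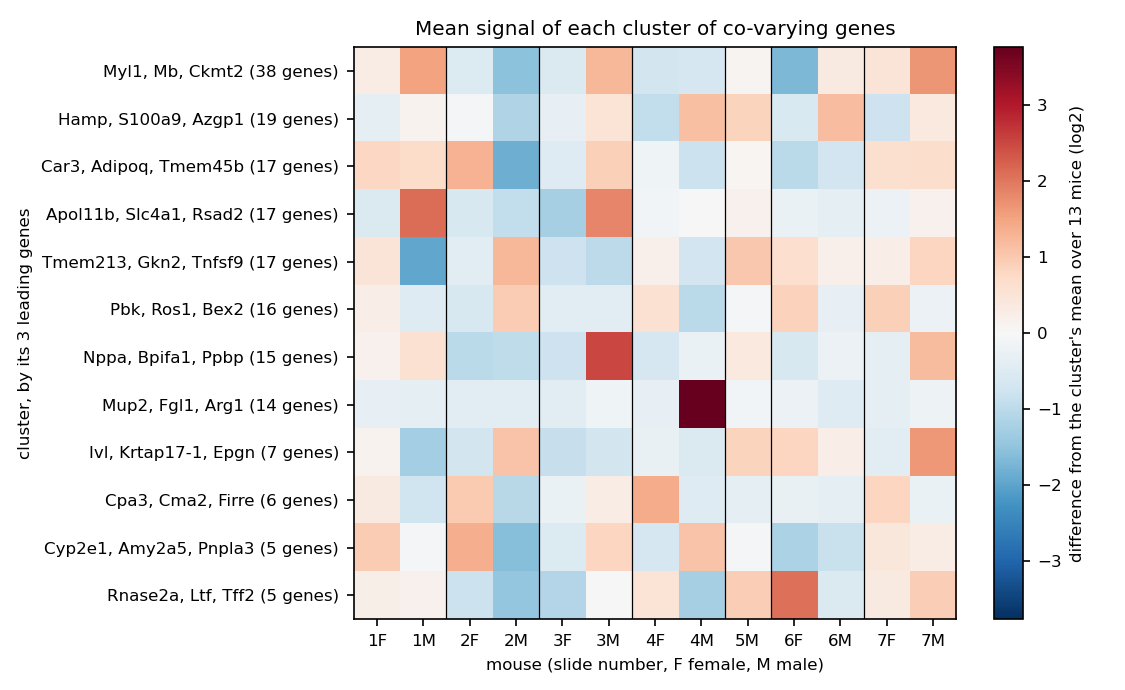
Mean signal of the genes of each of 12 clusters (rows, named by 3 leading genes) in each of 13 mice (columns, slide number with F for female and M for male, slides divided by lines), as the difference from the cluster's mean over the mice (log2, colour). The Mup2 cluster is high in the slide 4 male, the Slc4a1 cluster in the slide 1 and slide 3 males and the Ppbp cluster in the slide 3 male.

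The slide 2 male was the lowest mouse in 5 of the 12 clusters, more than any other mouse. These were the clusters led by Hamp, Car3, Cpa3, Cyp2e1 and Rnase2a, and that mouse was highest in those led by Tmem213 and Pbk. In 7 clusters over 50% of the spread lay on 1 slide. All 12 kept a median correlation over 0.5 with sex removed as well as slide, and with slide effects estimated from all 42 arrays. These values use the same genes and mice that formed the clusters, so they are no independent support.

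The wider lists for lung parts and programmes, 30 in all, gave a scale for these differences. The median SD within slides was 0.197 for 17 genes of alveolar type 1 cells, 0.271 for 27 of endothelium, 0.295 for 14 of club and secretory cells and 0.343 for 20 of alveolar type 2 cells. It was 0.335 for 16 of macrophages, 0.374 for 13 of smooth muscle and 0.395 for 16 of ciliated cells, beside 0.209 over all genes. Ribosomal proteins (0.104, 36 genes) and oxidative phosphorylation (0.136, 36 genes) were below all genes. Heart muscle (1.01, 19 genes), neutrophils (0.928, 9 genes), fat (0.781, 9 genes) and skeletal muscle (0.708, 5 genes) were well above. Without slide 2 the medians of fat, skeletal muscle and ciliated cells were 0.423, 0.391 and 0.197, beside 0.199 for all genes. Without slide 1 the median of alveolar type 2 cells was 0.229, beside 0.202 for all genes. The number of members called was 6 of 19, 2 of 9, 2 of 9 and 1 of 5 in these 4 lists, beside 0.281% of all genes. These lists had been chosen with such genes in view, and only members bright enough to be tested are counted.

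Members of a list rose and fell together to different degrees. The median correlation between members with slide means removed was 0.00367 over a random draw of genes and passed 0.5 in 12 lists. In the heart muscle list it was 0.877, in the class II presentation list 0.809, in red blood cells 0.792, in the cell cycle list 0.766, in alveolar type 2 cells 0.708 and in ciliated cells 0.695. Slide 3 held 60.9% of the spread of the red cell list. For the type 2 list slide 1 held 50.5%, and for the ciliated list slide 2 held 67.4%. No correlation of a list with a slide left out is given here. The type 2 list had its lowest mean, 12.07, in the slide 1 male and its highest, 13.09, in the slide 5 male. Lamp3, a lysosomal protein of lamellar bodies, ran from 11.45 to 12.94, Hc, a complement component, from 11.14 to 12.61, and the surfactant protease Ctsh from 13.54 to 14.94. The class II list, of which Cd74 and H2-Ab1 are members, was highest in the slide 6 female (11.06) and lowest in the slide 4 male (10.22). H2-Ab1 itself ran from 13.17 to 14.45.

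Ciliated cell genes were low in the slide 2 male, with a list mean of 8.47 against 9.27 to 9.61 in the other 12. Tekt1, a tektin of the ciliary axoneme, had 7.66 there and 9.52 in the slide 2 female. Smooth muscle genes Tagln, Actg2, Myocd and Lmod1 were also lowest in the slide 2 male, with 7.06, 10.43, 5.43 and 5.14. None of these genes was called for variance.

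The median SD was 0.369 for immediate early genes, 0.417 for the glucocorticoid response and 0.319 for the circadian clock, and the median correlation between members was 0.139, 0.095 and 0.138 in these lists. Fos ran from 8.55 in the slide 1 male to 10.96 in the slide 3 male, the glucocorticoid target Fkbp5 from 7.24 to 9.84, and the clock repressor Per2 from 9.77 to 11.52, the last with both extremes on slide 4. In the interferon list Rsad2 was called, while Isg15, the ubiquitin-like product of the same response, had an SD of 0.331 and the median of the 15 members was 0.229. Among Nrf2 targets the largest spread was that of the quinone reductase Nqo1 (5.47 to 7.55).

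**Figure D5:**
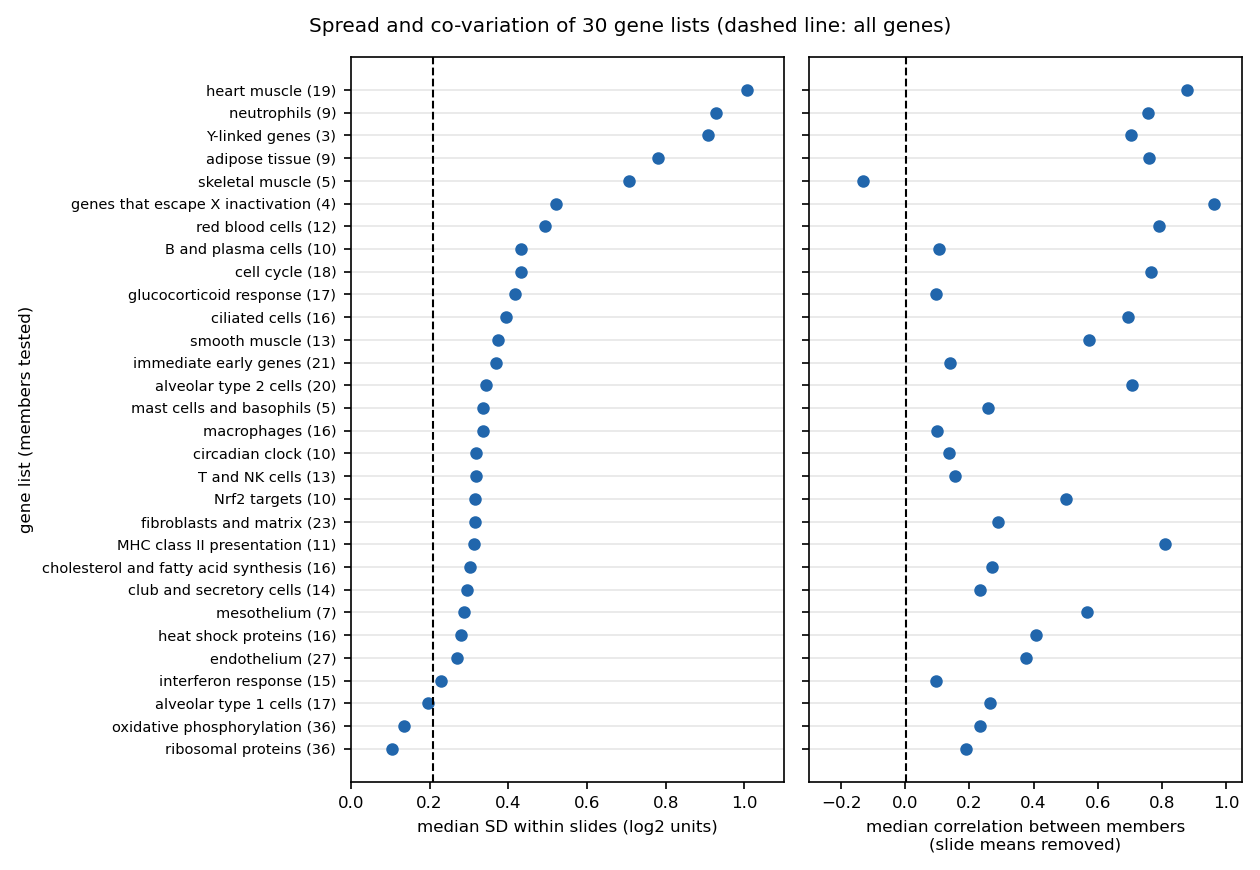
Median SD within slides (left, log2 units) and median correlation between members (right) for 30 gene lists (rows, with the number of members tested), dashed lines marking all genes. Heart muscle, neutrophil, Y-linked and fat genes lie at the top, ribosomal and oxidative phosphorylation genes at the bottom of the spread.

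For 23 lists 1 gene was taken to stand for the whole, and for the 8 of largest spread the nearest genes by correlation were found. Alas2 was closest to Rsad2 (0.993) and Fech (0.992), the last enzyme of haem synthesis. Myh6, a myosin heavy chain of heart muscle, was closest to Pgam2 (0.991), Hrc (0.991) and the fatty acid binding protein Fabp3 (0.990). Adipoq was closest to Car3 (0.991), then Eno4 and Cidec, and S100a8 to S100a9 (0.994) and Cstdc4 (0.990). Hspa1a was closest to its near-identical copy Hspa1b (0.994), and Top2a to the histone H2ac24 (0.987). With 6 differences and 9972 genes compared, high values also came from genes of small spread, such as Spg7 with Fos (0.983, SD 0.185). The number of genes over 0.95 was 26 for Myh6, 24 for Alas2 and 3 for Fos, and those below -0.95 numbered 7, 11 and 4.

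Whether different lung parts varied together was tested on 15 pairs of these genes over the 6 differences within slides. No pair passed at an adjusted p under 0.05 in the exact permutation test of 720 pairings, two-sided, although the smallest p it can give is 0.00139. Acta2, the actin of smooth muscle, and Myh6 had r 0.844 (Spearman correlation 0.943, exact p 0.0431 and 0.0167, adjusted p 0.323 and 0.25). Myh6 and Adipoq had r 0.816 (Spearman correlation 0.886, exact p 0.0236 and 0.0333, adjusted p 0.323 and 0.25), and r 0.147 without the 2 slides farthest from the median of Myh6. Without the 2 slides farthest from the median of Acta2, Acta2 and Myh6 had r 0.989. Ager of type 1 cells and the endothelial adhesion protein Pecam1 had r 0.785 with an exact p of 0.0792, and r 0.938 without the 2 farthest slides. The red cell and neutrophil genes Alas2 and S100a8 had r 0.069 with an exact p of 0.907. That value depended on the slides, with r 0.785 without the 2 farthest and -0.876 without slide 2.

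Since every difference within a slide is one between a female and a male, sex was tested with slide as a term. Of 17174 probes 15 were higher in males (0.0873%) and 11 in females (0.0641%) at an adjusted p under 0.05 (limma), and 12 of the 26 lay on the X or Y chromosome. Xist, the RNA that silences an X chromosome, was at 10.50, 10.36, 9.94, 10.55, 9.97 and 9.78 in the females and not detected in any male, where it read 4.41 to 4.72. It was at least 21.8-fold higher in females. The bound sets the female mean against the lowest signal of detected probes on each male array. Eif2s3y, a translation factor on the Y chromosome, ran from 8.06 to 9.20 in males and was not detected in females, at least 8.18-fold higher in males. Kdm5d, a histone demethylase on the Y chromosome, was detected in 6 of 7 males and no female (at least 1.29-fold). The sexes of the 13 mice thus matched their labels.

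The X-linked genes Kdm6a and Eif2s3x, which are known to escape inactivation, were higher in females. Kdm6a differed by -0.74 ± 0.08 (log2, male minus female, ± SE, adjusted p 0.00468) and by -0.79 ± 0.10 at a second probe, and Eif2s3x by -0.64 ± 0.08 (adjusted p 0.00734). The X-linked gene Pbdc1 was also higher in females (-0.53, log2, male minus female), while other X-linked genes went the other way. Arhgap6 and Hccs, which attaches haem to cytochrome c, were higher in males by 0.92 ± 0.13 (adjusted p 0.0211) and 0.75 ± 0.11 (adjusted p 0.0355).

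Autosomal genes were called too. Pla1a, a phospholipase, had 5.15 to 6.03 in females and 6.47 to 7.41 in males, a difference of 1.49 ± 0.15 (adjusted p 0.00294), and its second probe differed by 1.40 ± 0.17. The first probe was detected in 2 of 6 females and in 7 of 7 males, so its female values lie mostly at the background. Nt5e, the ecto-enzyme CD73 that makes adenosine, had 10.80 to 11.47 in females and 11.55 to 12.12 in males (0.67 ± 0.08, adjusted p 0.00775). Itgbl1, a protein with integrin-like repeats, was higher in males by 0.96 ± 0.12 (adjusted p 0.00778). Itgae, the integrin CD103 of epithelial T cells and dendritic cells, was higher in females at both of its probes (-0.70 and -0.77, log2, male minus female), with ranges of the sexes that overlapped. Of the 26 probes 18 had no overlap between females and males. They were called on the same values, so this adds no support, and the share over all tested probes was not counted.

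The count of sex calls was between 9 (without slide 4) and 120 (without slide 2) with each slide left out. The 4 Xist probes, Eif2s3y, Kdm5d, 1 probe each of Kdm6a and Pla1a and 1 unnamed probe were called in 6 of 6 of these fits. Arhgap6, Hccs, Itgae, Hipk1, Pbdc1 and Slc47a1 were called in 1 of the 6.

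The slides themselves differed before they were removed. With sex as a term, 358 probes (2.08%), for 195 genes (1.96%), differed between slides at an adjusted p under 0.05 (limma). The slide terms held a median of 62.1% of a probe's variance, where 50% would be their share of the degrees of freedom. The count was 165 with the prior not made robust and between 0 (without slide 3, and without slide 4) and 1407 (without slide 2) with slides left out. As each slide held at most 2 of these mice, slide and mouse cannot be told apart for these probes.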

How the data were processed

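Whole left lungs of 13 unirradiated mice were measured on Illumina arrays, 1 per mouse, from RNA extracted with a column kit and made into biotinylated cRNA, per the labels' protocols. The deposited table gives the mean signal intensity per probe with no normalization and a detection p-value, per the file headers. A second deposited table holds log2 values normalized by the authors by a method not given in the sources used here; over these 13 arrays its column medians were 3.96, its Spearman correlation with the signals was at least 0.999997, and its deviations had a slope of 1.16 on those computed here, from which the log2 scale was read. Its background step and the direction of any centring of genes are unknown, and it was used as an alternative only.

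The signals of the 13 arrays were corrected and normalized with neqc of limma 3.58.1 (R 4.3.3, offset 16), with the background inferred from the detection p-values. Probes with a detection p under 0.01 on at least 6 arrays were tested (17174). Gene names came from the platform annotation, updated through RefSeq genes of GRCm38.p6: 34885 of 45281 probes had 1 symbol, 18 several and 10378 none, 34818 matched, and a gene was represented by its probe of highest mean. Spread was the residual SD of a fit with slide, tested against the trend that eBayes fits (trend, robust). Slides and sexes were tested with limma, pairs of genes by exact permutation. Gene lists (30, with 631 genes asked, 563 with a probe and 443 tested) and clusters were described without a test. The members and lists were chosen with earlier results of these data known.

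Genes named were the 25 brightest, the 25 called genes of largest SD, up to 10 genes of smallest p for sex, the genes that stand for a list with their 5 nearest genes, up to 4 members of largest SD in a list, and up to 8 leading genes of a cluster; others, such as those detected in 1 mouse or lowest in the same mice, were chosen after their values were seen. Fits were tested on simulated data. The test of variance recovered few probes there, as given above, and the test of sex recovered 82 of 100 at 1 log2 and 99 of 100 at 2 log2. Alternatives were other normalizations and filters, slide and sex terms, the prior, and each slide left out. Precision is limited by the number of arrays. The p-values measure the spread between these mice, whose litters are not known.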

Additional observations from a re-analysis of the deposited data

Results flagged for a closer look

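Within the 6 females or the 7 males, 3 genes that stand for a list had an array far from the others of its sex, among 46 groups examined, where chance gives about 1 in 20. Marco, a scavenger receptor of alveolar macrophages, was lowest among females in the slide 3 female (7.16, next 7.81). Cd3e, a chain of the T cell receptor complex, was lowest among females in the slide 4 female (7.94, next 8.69). Dbp, a clock output factor, was lowest among females in the slide 4 female (11.74, next 12.45).

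Some markers of other tissues did not enter the tests because too few arrays detected them, and still had a signal in 1 or 2 mice. Apoa1 read 13.27 in the slide 4 male, against a median of 4.82 over the 13 mice. Ttr read 12.81 in the same male, against a median of 4.46. Ptcra, the pre-T cell receptor chain of the thymus, read 6.002 in the slide 1 male, against a median of 5.08, while Rag1 and Dntt were not detected in any mouse. The part of other tissue in the levels of the slide 4 male was not tested.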

How the results depend on the processing

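The number of variable probes was 46 as reported. It was 182 with median scaling in place of quantile normalization, 25 with probes detected on all 13 arrays, 565 with no filter, 17 with sex removed as well as slide, 123 with slide effects from all 42 arrays, and 0 with no slide term or without the robust prior. It was 5 to 98 with a slide left out. The stricter filter tests fewer probes and the lack of one tests more. For the others the cause was not tested. Of the 25 variable genes named, 14 were also chosen among probes detected on all arrays, 8 with no filter, 14 with sex removed and 16 with no slide term, and 15 to 21 with a slide left out. Probes that differed between slides (358) numbered 6364 with median scaling and 165 without the robust prior, and 0 to 1407 with a slide left out. Sex calls (26) were 9 to 120 with a slide left out, and between 18 and 36 in the other fits. Gene pairs had 0 calls in every fit run, 20 lists had a median SD over 1.5 times that of all genes (16 to 21 with a slide left out), and 12 clusters became 9 or 10. No paired analysis was possible because the replicate numbers of the controls only count the arrays and there is 1 group. The female and male of a slide were compared within it through the slide term. Signal over background limits the dim genes, whose lowest values lie at the floor.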
